A study of Mus musculus with 23 samples.

Results

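All transgene carriers of the series were compared with all non-carriers in hippocampal RNA sequencing from C57BL/6 mice. A library was a carrier where its title names the PS19 tau transgene, which gave 14 carrier libraries and 9 non-carrier libraries, 23 of the 23 in the series. PS19 mice express human tau with the P301S change under the mouse Prnp promoter, so the transgene is active in many neurons and not in the hippocampus alone. The 9-month carriers were 4 libraries with the transgene and wild-type Lsd1 (PS19) and 4 that also had 1 deleted Lsd1 allele (PS19;Lsd1Δ/+, written PS19_Lsd1het). The 9-month non-carriers were 4 wild-type libraries (WT) and 2 with 1 deleted Lsd1 allele and no transgene (Lsd1Δ/+, written Lsd1het). At 11 months every mouse had received an adeno-associated virus, restricted to neurons, directly into the hippocampus. The 11-month carriers were 3 libraries with the control virus HA (PS19_HA) and 3 with a virus expressing LSD1 (PS19_rescue), and the 11-month non-carriers were 3 wild-type libraries with the HA virus (WT_HA). Age, virus and cohort differ together, so their parts cannot be told apart, and the pooled comparison mixes Lsd1 dose and LSD1 virus into the carrier arm.

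Libraries held 15451494 to 24644977 counts over 54232 gene identifiers. The first principal component without any adjustment, with 42.2% of the variance, put the 8 libraries of 9-month replicates 1 and 2 between -79.8 and -65.8 and the other 15 between 10.3 and 131.8. Carriers were therefore compared within 3 strata: 9-month replicates 1 and 2 (4 carriers, 4 non-carriers), 9-month replicates 3 and 4 (4 and 2) and 11 months (6 and 3). The share of counts on mitochondrially encoded genes was 33.9% for WT replicate 3, 16.2% for WT_HA replicate 2 and 16.1% for PS19 replicate 3, against 2.86% to 6.04% elsewhere. All 9-month libraries were of male type and the 11-month libraries were mixed, 4 of them with over 10 CPM (counts scaled to library size) both of Xist and of Y-linked genes. Of 92 named genes that were called, 14 lost the call without the 3 libraries over 10% mitochondrial and 20 without the 4 of both sex types, and the values for those described are given beside them. Without the high-mitochondrial libraries, WT replicate 4 was the only non-carrier of its stratum. Without those of both sex types, WT_HA replicate 1 was the only non-carrier at 11 months. The part that fewer non-carriers had in the lost calls was not tested. The labels do not say that replicates are separate animals, so p-values measure the spread between these libraries, which may be partly technical.

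Tau binds microtubules in axons, and its aggregation in neurons defines the tauopathies. In mouse models of tauopathy, microglia leave their resting state, take up debris and turn on phagocytic, lysosomal and antigen-presenting genes, and astrocytes raise intermediate filaments and complement. Type I and type II interferons act through STAT and IRF transcription factors, whose targets carry an interferon-stimulated response element. In whole tissue, fewer cells of a type and less RNA per cell cannot be told apart, and the same holds for more cells and more RNA per cell.

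The letters of that element were looked for upstream of the genes, and 4 regions show where they lie, since interferon genes were among those higher in carriers. The motif searched was GAAA, any 2 bases and GAAA again, on both strands, and the regions are the 250 bases before the RefSeq start site on GRCm38.p6, written 5′ to 3′ on the gene's strand, with a match in capitals. The set holds a guanylate-binding protein gene (Gbp2b, chr3:142594597-142594846, plus strand), a chemokine gene (Cxcl10, chr5:92348890-92349139, minus strand), a lysosomal protease gene (Ctss, chr3:95526536-95526785, plus strand) and, with no match in its window, the gene whose promoter drives the transgene (Prnp, chr2:131909678-131909927, plus strand).
Gbp2b: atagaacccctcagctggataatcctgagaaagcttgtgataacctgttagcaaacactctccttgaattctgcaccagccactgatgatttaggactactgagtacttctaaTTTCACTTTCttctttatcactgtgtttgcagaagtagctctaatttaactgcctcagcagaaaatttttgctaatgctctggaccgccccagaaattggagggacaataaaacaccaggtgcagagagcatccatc
Cxcl10: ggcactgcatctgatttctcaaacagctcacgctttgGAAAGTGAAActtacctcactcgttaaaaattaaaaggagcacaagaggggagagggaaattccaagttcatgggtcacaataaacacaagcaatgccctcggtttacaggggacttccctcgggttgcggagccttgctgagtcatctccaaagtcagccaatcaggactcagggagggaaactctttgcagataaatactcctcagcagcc
Ctss: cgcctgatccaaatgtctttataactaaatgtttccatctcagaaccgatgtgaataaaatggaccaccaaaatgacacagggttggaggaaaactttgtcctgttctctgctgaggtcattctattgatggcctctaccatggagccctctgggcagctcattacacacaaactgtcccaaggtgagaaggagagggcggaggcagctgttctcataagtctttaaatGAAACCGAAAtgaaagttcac
Prnp: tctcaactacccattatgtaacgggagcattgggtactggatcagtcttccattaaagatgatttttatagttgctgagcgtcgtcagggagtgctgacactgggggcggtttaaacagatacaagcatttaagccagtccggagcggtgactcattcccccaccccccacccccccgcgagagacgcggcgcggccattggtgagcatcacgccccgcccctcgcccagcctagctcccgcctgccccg
Counted with the start site as 0, the match began at base -137 in Gbp2b, where the letters lie on the opposite strand, at -213 in Cxcl10 and at -21 in Ctss. Over windows of 300 bases, from 250 before to 50 after the start, 3.99% of 27025 genes held the motif, and 3.66% of the 13379 tested genes with a promoter entry. Among genes higher in carriers, 81 of 768 (10.55%) held it, against 6 of 171 (3.51%) among genes lower in carriers. Of the interferon response list, 17 of 25 (68%) did, compared with 1 of 23 (4.35%) genes of the disease-associated microglia list and 3 of 21 (14.29%) of the reactive astrocyte list. The STAT motif TTCNNNGAA lay in 10.29% of the genes higher in carriers, 6.43% of those lower, 8.27% of genes tested and 9.55% of all promoters. For GAGGAAGT, a motif of the myeloid factor PU.1, these shares were 6.9%, 2.34%, 3.39% and 3.69%. A match is a description of letters and not of binding.

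The targeted genes were read first. Prnp, which encodes the prion protein and lends its promoter to the transgene, lay between 1072 and 1879 CPM in 9-month carriers (median 1675) and between 659.6 and 922.8 in non-carriers (median 839.0). At 11 months carriers ranged from 1195 to 1728 CPM (median 1575) and non-carriers from 614.4 to 721.9 (median 666.2). Every carrier was above every non-carrier of either cohort. The log2 difference, carriers minus non-carriers, was 1.08 ± 0.10 (SE, edgeR quasi-likelihood test, Benjamini-Hochberg adjusted p = 1.56e-06). Lamr1-ps1, a pseudogene of the laminin receptor at chr2:131904086-131904959, just upstream of Prnp at chr2:131909928-131938429, had 0 counts in all 9 non-carriers and 32 to 78 counts in each carrier. Carriers were at least 186-fold higher, taking 3 counts over the non-carrier group as the floor (adjusted p = 1.47e-08). Whether reads of Prnp and Lamr1-ps1 come from the transgene or from the mouse genes was not tested, and the pseudogene's counts share sequence with its parent gene.

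Mapt, the mouse tau gene, lay between 462.3 and 774.7 CPM in 9-month carriers (median 576.7) and between 370.5 and 536.6 in non-carriers (median 495.0). At 11 months the ranges were 491.1 to 535.8 (median 523.1) and 445.7 to 498.2 (median 494.5), and carriers overlapped non-carriers in each cohort. The pooled log2 difference was 0.26 ± 0.07 (adjusted p = 0.0255) and lost the call under 7 alternatives, with adjusted p up to 0.359 and of 0.0736 without the libraries of both sex types. Human tau reads placed on Mapt were not told apart from mouse tau. Kdm1a, which encodes LSD1, was not called (log2 1.13 ± 0.95, adjusted p = 0.494). It ranged from 35.25 to 61.61 CPM in 9-month carriers (median 49.84) and from 35.39 to 61.36 in non-carriers (median 51.77), and from 60.58 to 66.24 in the 11-month non-carriers. Among 11-month carriers it ran from 60.55 to 10810 CPM, and the 3 libraries that received the LSD1 virus had 1727, 2954 and 10810 CPM. Reads of the virus and of the mouse gene cannot be told apart in these counts.

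**Figure D1:**
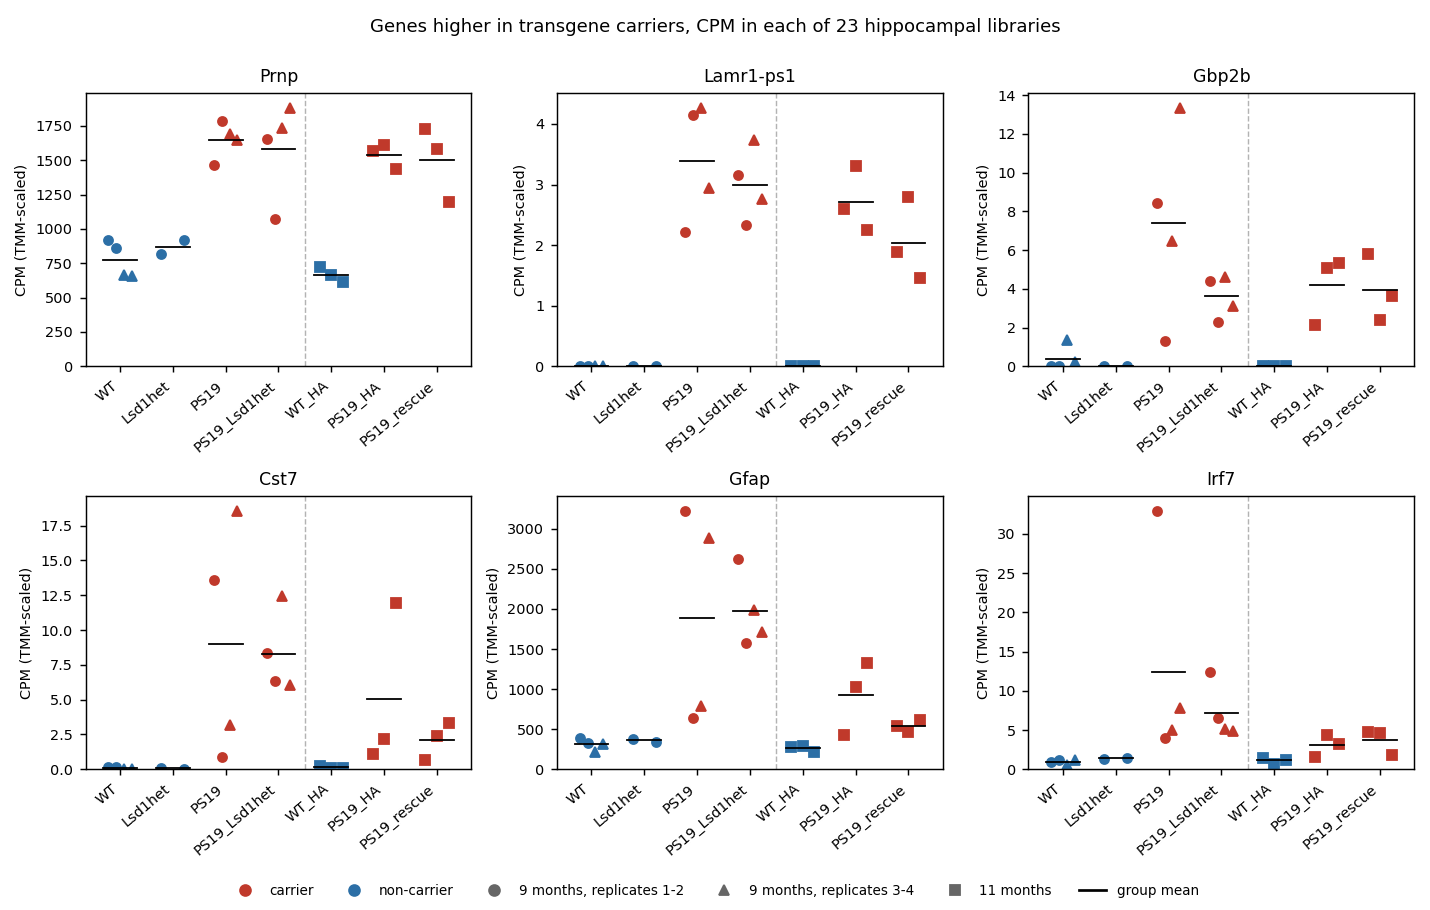
CPM of Prnp, Lamr1-ps1, Gbp2b, Cst7, Gfap and Irf7 in each of the 23 libraries by group (TMM-scaled, linear axes from 0, carriers red, non-carriers blue, circles for 9-month replicates 1 and 2, triangles for replicates 3 and 4, squares for 11 months, black line for the group mean). Lamr1-ps1 is at 0 in all 9 non-carriers, and within each stratum every carrier lies above every non-carrier in all 6 panels.

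Across the whole table, 1329 of 20931 genes tested differed between carriers and non-carriers (6.35%), of which 1002 were higher in carriers (4.79%) and 327 lower (1.56%). With cohort as a covariate of 2 levels in place of the 3 strata there were 512 higher and 21 lower, and with equal weights for groups 41 were lower and 90.5% of the calls higher. Protein-coding genes made up 943 of the higher and 212 of the lower genes, pseudogenes 18 and 28, and genes with predicted or pseudogene names 61 and 114. DESeq2 called 1299 higher (6.21%) and 720 lower (3.44%). Rises were larger than falls: 402 genes were higher by a log2 of 1 or more (1.92%) and 59 lower by as much (0.282%), and at a log2 of 2 or more the counts were 123 (0.588%) and 11 (0.0526%). Fitted differences had the same sign in all 3 strata for 1324 of the 1329 genes (6.33% of those tested), against 48.3% of all genes tested, a share that the pooled call itself raises. In 102 genes every carrier lay above every non-carrier within each stratum (0.487%), and in 7 every carrier lay below (0.0334%). Scaled by library totals alone, without TMM, these counts were 128 and 1.

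The number called rests on which groups and libraries enter. With only WT, PS19, WT_HA and PS19_HA, 7 genes passed: Lamr1-ps1, Prnp, Cst7, 4930590L14Rik, Gbp2b, Clec7a and Ccl3, all higher, while 2494 genes had an unadjusted p under 0.05. In that smaller fit the 974 higher genes tested in both had a median log2 difference of 0.90 against 0.86 with all libraries, a median SE of 0.27 against 0.20 and a median adjusted p of 0.149. Most genes named below therefore lose their call there, with adjusted p mostly between 0.06 and 0.13, and this is not repeated at each gene. Without PS19 replicate 1 the count was 774, without WT replicate 3 it was 788, without WT replicate 1 it was 877, and without PS19 replicate 3 it was 2065.

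Interferon response genes were higher in carriers almost throughout. Of the 35 listed and tested, 33 rose and none fell, with a median log2 difference of 1.68 beside 0.01 over all genes tested, and in 14 of them carriers and non-carriers did not overlap in any stratum. The medians were 2.43 and 1.72 in the 9-month strata and 0.98 at 11 months. By cohort, 34 were called at 9 months and 0 at 11 months, where all 35 had a difference above 0. Irf7, the transcription factor that amplifies the type I interferon response, ranged from 3.93 to 32.9 CPM in 9-month carriers (median 5.83) and from 0.489 to 1.44 in non-carriers (median 1.17). At 11 months it ranged from 1.58 to 4.76 CPM (median 3.81) and from 0.711 to 1.45 (median 1.25). The groups did not overlap in either cohort, and the pooled difference was 2.58 ± 0.38 (adjusted p = 0.000627). Mx1, an antiviral GTPase, rose by 3.37 ± 0.49 (adjusted p = 0.000607), from a median of 0.0890 to 2.56 CPM at 9 months and from 0.313 to 1.44 CPM at 11 months. Oas1a, a sensor of double-stranded RNA, rose by 3.31 ± 0.51 and Ifi44 by 3.06 ± 0.43. Ifi44l, which lies beside Ifi44 on chromosome 3, rose by 4.12 ± 0.61 (adjusted p = 0.000676) and was at or below 0.391 CPM in every non-carrier. Ifit2 (0.59) and Cmpk2 (0.35) were the members that did not pass. Interferon genes of the Gbp, Oas and Ifi20x families have near-identical copies, so their counts may be split between members.

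Chemokine genes rose in 9 of 13 tested members, none fell, and their median log2 difference was 2.41. Ccl3, a myeloid chemoattractant, ranged from 0.319 to 3.70 CPM in 9-month carriers (median 1.17) and from 0 to 0.196 in non-carriers (median 0.0427), and from 0.412 to 2.096 against 0.0592 to 0.0831 at 11 months. No library of the other arm fell into the carriers' range, and the difference was 4.13 ± 0.45 (adjusted p = 1.45e-05). This call also held with WT, PS19, WT_HA and PS19_HA alone (adjusted p = 0.0218). Ccl4, its neighbour on chromosome 11, rose by 4.67 ± 0.64 (adjusted p = 0.000374) at levels under 2.12 CPM. Cxcl10, the interferon-induced ligand of CXCR3, ranged from 1.96 to 13.7 CPM in 9-month carriers (median 4.50) and from 0 to 0.339 in non-carriers (median 0.0706). At 11 months its range was 1.08 to 3.87 CPM (median 3.44) against 0.355 to 0.707 (median 0.430), again without overlap, and the difference was 4.02 ± 0.51 (adjusted p = 0.000178). Cxcl13, which attracts B cells, rose by 4.05 ± 0.78 (adjusted p = 0.00316) and Cxcl16, made by myeloid cells, by 1.78 ± 0.27 (adjusted p = 0.000731). Over all chemokine genes the summed CPM overlapped, from 288.5 to 728.1 in carriers and from 270.5 to 741.1 in non-carriers, since the abundant members Cxcl12 (-0.02), Cxcl14 (0.00) and Cx3cl1 (-0.11) did not pass.

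Antigen presentation genes were higher on both arms of the pathway. For class II, 5 of 7 tested genes rose, with a median log2 difference of 2.91. H2-Aa, the alpha chain that binds peptide, ranged from 1.81 to 93.7 CPM in 9-month carriers (median 10.3) and from 0.276 to 1.31 in non-carriers (median 0.833). At 11 months it ranged from 5.81 to 48.5 CPM (median 13.5) against 2.46 to 4.32 (median 3.82). Carriers did not overlap non-carriers within a cohort, and the difference was 3.33 ± 0.58 (adjusted p = 0.00151). The invariant chain Cd74 rose by 3.30 ± 0.61, H2-Ab1 by 2.97 ± 0.54 and H2-Eb1 by 2.91 ± 0.50. Ciita, the class II transactivator, had a difference of 0.49 and did not pass. For class I and the immunoproteasome, 14 of 15 rose (median 1.44). H2-D1 rose by 1.96 ± 0.31 (adjusted p = 0.000895), H2-K1 by 1.82 ± 0.29 (adjusted p = 0.000757), the class I transactivator Nlrc5 by 2.16 ± 0.33 and the immunoproteasome subunit Psmb8 by 1.61 ± 0.25. H2-D1 and H2-K1 are similar in sequence and may share reads.

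Microglial genes rose, most of all those of the disease-associated state. In that list 24 of 29 tested genes rose and none fell, with a median of 1.70, and 7 showed no overlap in any stratum. DESeq2 called 26 of its genes higher and 1 lower. Cst7, an inhibitor of cathepsins, ranged from 0.850 to 18.5 CPM in 9-month carriers (median 7.34) and from 0 to 0.169 in non-carriers (median 0.0706). At 11 months its range was 0.647 to 11.9 CPM (median 2.26) against 0.117 to 0.208 (median 0.118), with no overlap, and the difference was 5.71 ± 0.68 (adjusted p = 5.32e-05). Itgax, which encodes the integrin CD11c, rose by 5.13 ± 0.70 (adjusted p = 0.000374), from medians of 0.1103 to 14.0 CPM at 9 months and 0.651 to 5.35 CPM at 11 months. The beta-glucan receptor Clec7a rose by 4.72 ± 0.69 (adjusted p = 0.000627), and kept its call in the fit of 4 groups (adjusted p = 0.0404). Trem2, the receptor required for this state, rose by 1.67 and its signalling partner Tyrobp by 1.70. The secreted glycoprotein Lgals3bp rose by 2.03 ± 0.28 (adjusted p = 0.000374). Lpl (-0.06), Apoe (0.46), Fabp5 (-0.35), Igf1 (0.00) and Ch25h (1.48) did not pass.

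Genes of resting microglia did not fall. Of 17 tested, 8 rose and none fell, with a median of 0.52. The microglial transcription factor gene Sall1 (0.43 ± 0.10) and the receptor gene Tgfbr1 (0.51 ± 0.12) were among those that rose. P2ry12, the ADP receptor of resting processes, had a difference of -0.23 and Tmem119 of 0.68, and neither passed. The list's summed level was 423.7 to 1009.7 CPM in carriers and 380.6 to 429.2 in non-carriers, overlapping over all libraries but not within a stratum. Whether this level varied with the lists above, and its part in their rises, was not tested. Without the 4 libraries with reads of both sex types, 2 of the 17 were called, at a median of 0.55, and Sall1 was not among them (adjusted p = 0.0563).

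Complement and Fc receptor genes rose in 14 of 19 (median 1.33). C4b, a complement component made by astrocytes and oligodendrocytes, ranged from 74.1 to 587.0 CPM in 9-month carriers (median 350.8) and from 10.2 to 57.7 in non-carriers (median 45.7), and from 113.8 to 348.0 against 37.3 to 67.8 at 11 months. It rose by 2.57 ± 0.37 (adjusted p = 0.000601) with no overlap. The central component C3 rose by 3.50 ± 0.60, its receptor C3ar1 by 2.09 ± 0.31, the activating receptor Fcgr4 by 2.75 ± 0.47 and the inhibitory receptor Fcgr2b by 1.66 ± 0.27. Toll-like receptor and NF-kB genes rose in 15 of 20 (median 0.98). They included Tlr2, a receptor for lipoproteins (2.52 ± 0.37), its partner Cd14 (1.96 ± 0.36), Tlr13, a sensor of bacterial ribosomal RNA (1.18 ± 0.23), and the NF-kB subunit Nfkb2 (1.11 ± 0.21). Lysosomal genes rose in 17 of 20 (median 0.54), and 11 did without the 4 libraries of both sex types (median 0.61). The cathepsin gene Ctss, shown above with a motif next to its start, ranged from 62.6 to 287.6 CPM in 9-month carriers (median 164.6) and from 40.4 to 57.8 in non-carriers (median 44.2). At 11 months it ranged from 73.1 to 213.7 CPM against 47.3 to 66.8, and the difference was 1.51 ± 0.23 (adjusted p = 0.000731). Ctsh rose by 1.27 ± 0.22, Ctsc by 1.01 ± 0.16 and the lysosomal membrane protein gene Laptm5 by 0.94 ± 0.18.

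Among the largest rises outside these lists were the Src-family kinase gene Fgr (3.79 ± 0.67, adjusted p = 0.00164) and Cd22 (3.54 ± 0.59, adjusted p = 0.00111), a sialic acid receptor of B cells and microglia. Elf4, an Ets-family transcription factor, rose by 1.39 ± 0.19 (adjusted p = 0.000374), with little difference between the cohorts (1.40 at 9 months, 1.36 at 11 months). Ighv1-12, an immunoglobulin variable segment, was called (6.13 ± 1.01, adjusted p = 0.00107) from the 11-month carriers, which ranged from 0.176 to 6.96 CPM (median 3.66). It was at or below 0.0613 CPM in the 9-month carriers and at or below 0.118 in all non-carriers, and DESeq2 did not call it (adjusted p = 0.179).

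Reactive astrocyte genes rose in 16 of 23 tested (median 1.49), with 6 free of overlap in every stratum. Gfap, the intermediate filament of astrocytes, ranged from 643.4 to 3219 CPM in 9-month carriers (median 1846) and from 216.9 to 396.2 in non-carriers (median 336.2). At 11 months it ranged from 422.1 to 1332 CPM (median 574.5) against 217.6 to 292.6 (median 284.0). The lowest carrier of each cohort lay above the highest non-carrier, and the difference was 2.14 ± 0.30 (adjusted p = 0.000374). Gbp2b ranged from 1.33 to 13.3 CPM in 9-month carriers (median 4.51) and from 2.16 to 5.82 at 11 months (median 4.34). It was at 0 in 7 of the 9 non-carriers and reached 1.37 CPM in WT replicate 3, inside the range of the 9-month carriers as a whole but below every carrier of its stratum. Its difference was 5.45 ± 0.63 (adjusted p = 4.69e-05). Tgm1, a transglutaminase, rose by 3.37 ± 0.51 and the filament gene Vim also rose (adjusted p = 0.000731), from a median of 28.9 to 157.5 CPM at 9 months and of 29.3 to 64.9 CPM at 11 months. Of 15 genes that mark astrocytes in general, 1 rose, the water channel gene Aqp4 (0.69 ± 0.18, adjusted p = 0.0213), with a median of 0.19. This share is near the 4.79% called higher over all genes tested.

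Myelin and oligodendrocyte genes rose in 7 of 17 (median 0.40). The iron carrier Trf rose by 0.82 ± 0.19, the tight junction gene Cldn11 by 0.68 ± 0.15, the myelin transcription factor Myrf by 0.61 ± 0.12 and Sox10 by 0.40 ± 0.11, the last losing its call under 9 alternatives, among them those without the high-mitochondrial libraries (adjusted p = 0.125) and without those of both sex types (adjusted p = 0.0987). These left 4 and 3 calls in the list, and leaving out single libraries 3 to 8. None of 9 oligodendrocyte precursor genes passed. Of 12 endothelial genes 1 rose, the von Willebrand factor gene Vwf (0.78 ± 0.23, adjusted p = 0.0478), which lost the call under 20 alternatives, with adjusted p of 0.0976 without the high-mitochondrial libraries and 0.062 without those of both sex types. Cd3e, a subunit of the T cell receptor complex, was the 1 of 7 tested T cell genes to rise (1.71 ± 0.51, adjusted p = 0.0439), at or below 1.03 CPM and with its call lost under 20 alternatives, including those without either set of libraries (adjusted p = 0.0997 and 0.199). Of the 14 T cell genes listed, 7 were too low to test. With 4.79% of all genes tested called higher, the single endothelial and T cell calls say little about those lists. None of 5 B cell, 14 mural cell and fibroblast, 5 red blood cell, 8 thalamic and 8 neocortical marker genes passed.

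Choroid plexus and striatal markers varied between libraries without a call. The 12 choroid plexus genes had a median of 1.20, and their summed level spread from 51.5 to 3916 CPM in carriers and from 50.0 to 2252 in non-carriers. The 9 striatal genes had a median of -0.56, with 73.7 to 382.2 CPM in carriers and 112.2 to 484.6 in non-carriers. The part that differing amounts of neighbouring tissue have in the lists above was not tested.

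**Figure D2:**
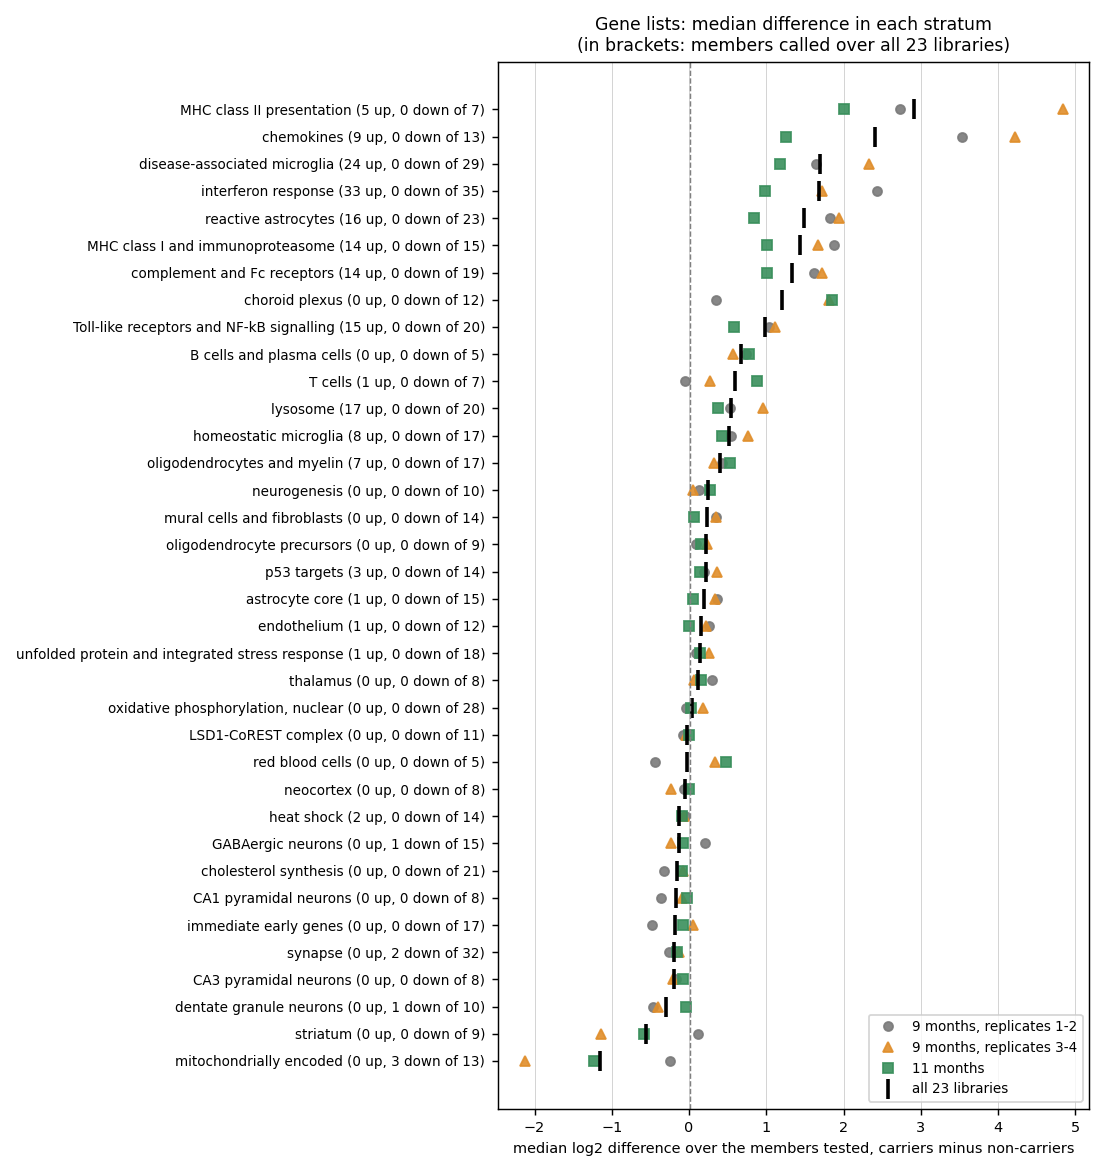
Median log2 difference, carriers minus non-carriers, of the tested members of 36 gene lists in 9-month replicates 1 and 2 (grey circles), 9-month replicates 3 and 4 (orange triangles), 11 months (green squares) and all 23 libraries (black bars), with the number of members called in brackets and the dashed line at the median of all genes. The interferon list stands at 2.43, 1.72 and 0.98 in the 3 strata and the synapse list at -0.26, -0.13 and -0.15.

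Falls were smaller and fewer. The 7 genes in which every carrier lay below every non-carrier within each stratum were Cntnap5a, Gdap10, Rnf217, Hace1, Kif5c, Cdo1 and 1 predicted gene. Without TMM scaling the count was 1, so most of these separations depend on the scaling. Cntnap5a, a neurexin-family adhesion gene, ranged in the 3 strata from 10.6 to 16.0, 28.5 to 48.0 and 38.1 to 59.3 CPM in carriers. The matching non-carriers ranged from 22.9 to 30.8, 54.4 to 69.3 and 64.4 to 82.2 CPM. The strata differed more than the groups within them, and the difference within strata was -0.73 ± 0.10 (adjusted p = 0.000493). Kif5c, a kinesin motor of axonal transport, ranged from 667.2 to 768.9, 929.9 to 1234 and 905.0 to 1083 CPM in carriers, against 856.3 to 928.9, 1276 to 1505 and 1114 to 1404 in non-carriers (-0.35 ± 0.06, adjusted p = 0.00203). Cdo1, which oxidises cysteine, had -0.30 ± 0.07 (adjusted p = 0.0128), the ubiquitin ligase genes Hace1 and Rnf217 -0.36 ± 0.07 and -0.49 ± 0.10, and Gdap10 -0.67 ± 0.15. With cohort as a covariate of 2 levels, all 6 of these named genes lost their calls: adjusted p was 0.357 for Cntnap5a, 0.282 for Kif5c, 0.388 for Hace1, 0.4395 for Cdo1, 0.102 for Rnf217 and 0.293 for Gdap10. Cdo1 also lost its call without the 4 libraries of both sex types (adjusted p = 0.106).

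The 11 genes lower by a log2 of 2 or more were 8 pseudogenes, the immunoglobulin segment Ighv5-6 and the mitochondrial genes mt-Nd4l and mt-Co3, a count made after their values were seen. Other named falls were smaller. Xkr4, a membrane scramblase-family gene, fell by 1.04 ± 0.24 on the log2 scale (adjusted p = 0.0108), and Dok6, an adaptor of neurotrophin receptors, by 1.04 ± 0.27 (adjusted p = 0.0221). The zinc finger genes Zfp804b and Zfp871 had differences of -1.07 ± 0.27 and -0.93 ± 0.20. Nkain3, which encodes a partner of the sodium pump, had -0.97 ± 0.25, Sytl5, a vesicle transport gene, -0.97 ± 0.23, the potassium channel gene Kcng3 -0.88 ± 0.19 and Gsg1l, an auxiliary subunit of AMPA receptors, -0.83 ± 0.17. Otof, a calcium sensor of vesicle fusion, ranged from 6.07 to 15.2 CPM in 9-month carriers (median 8.52) and from 7.73 to 21.3 in non-carriers (median 15.7). At 11 months it ranged from 7.06 to 13.3 CPM (median 8.71) against 13.6 to 47.2 (median 23.4), without overlap there, and the difference was -0.96 ± 0.22 (adjusted p = 0.0117). Without the 4 libraries of both sex types, all of them at 11 months, Otof had -0.68 and lost its call (adjusted p = 0.0672). Sytl5, Zfp804b and Nkain3 lost theirs too, with adjusted p of 0.0963, 0.113 and 0.0503. Without the 3 libraries over 10% mitochondrial their adjusted p were 0.0835, 0.0921 and 0.0577.

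Synaptic genes shifted little. Of 32 tested, 2 fell and none rose, with a median of -0.20, and 30 had a difference below 0. Gria3, a subunit of AMPA receptors, had -0.37 ± 0.11 (adjusted p = 0.0382) and the fusion regulator Cplx2 -0.53 ± 0.16 (adjusted p = 0.0425), with calls lost under 17 and 20 alternatives. DESeq2 called 8 synaptic genes lower, and leaving out single libraries gave 0 to 9. Without the 3 libraries over 10% mitochondrial, Cplx2 had -0.30 (adjusted p = 0.212) and Gria3 -0.24 (adjusted p = 0.0624), and without the 4 libraries of both sex types neither was called (adjusted p = 0.101 and 0.112). Of 10 dentate granule genes 1 fell, Stxbp6 (-0.59 ± 0.14, adjusted p = 0.0149), and of 15 GABAergic genes 1 fell, the neuropeptide gene Sst (-0.52 ± 0.15, adjusted p = 0.0439), whose call was lost under 24 alternatives. Stxbp6 lost its call without the high-mitochondrial libraries (adjusted p = 0.0601) and without those of both sex types (adjusted p = 0.0721). The medians were -0.16 for 8 CA1 genes, -0.20 for 8 CA3 genes and -0.30 for the dentate genes, with no other call. With 1.56% of all genes tested called lower, the single dentate and GABAergic calls say little about those lists.

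**Figure D3:**
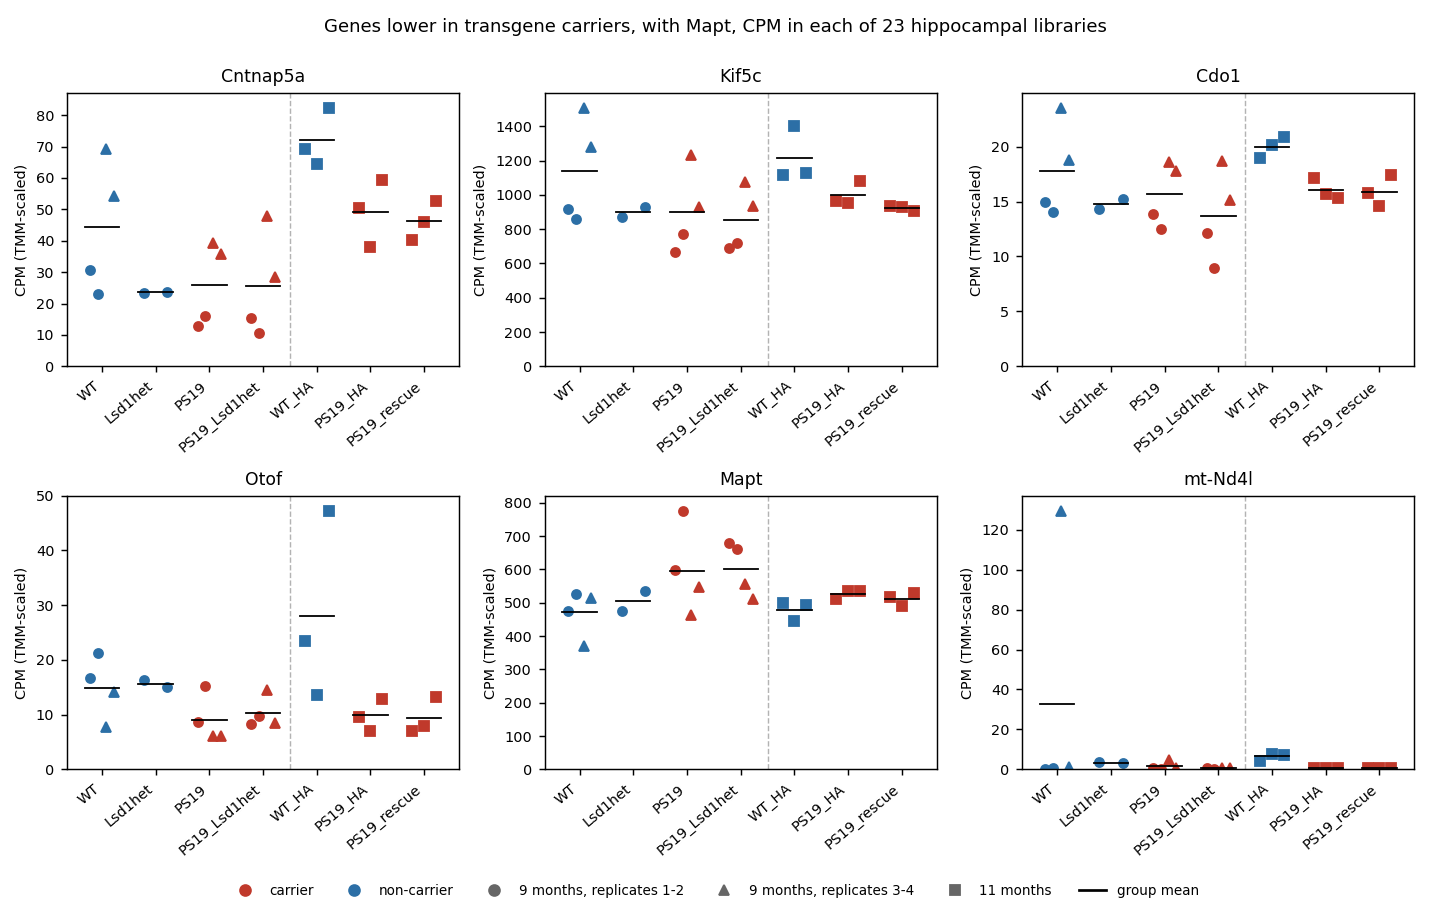
CPM of Cntnap5a, Kif5c, Cdo1, Otof, Mapt and mt-Nd4l in each of the 23 libraries by group (linear axes from 0, symbols by stratum, black line for the group mean). With TMM scaling, Cntnap5a, Kif5c and Cdo1 are lower in carriers within each stratum although the strata differ, and mt-Nd4l reaches 129.3 CPM in WT replicate 3.

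Of 13 mitochondrially encoded genes in the list 3 fell, with a median of -1.16, and 7 of the 327 lower genes were mitochondrial. The summed level ran from 22975 to 161121 CPM in carriers and from 28045 to 482442 in non-carriers. mt-Nd4l, a complex I subunit, ranged from 0.266 to 4.60 CPM in 9-month carriers (median 0.528) and from 0.330 to 129.3 in non-carriers (median 2.02), with overlap. At 11 months the ranges were 0.514 to 0.880 (median 0.744) and 4.41 to 7.76 (median 7.35), without overlap, and the pooled difference was -3.64 ± 0.60 (adjusted p = 0.00107). Without the 3 libraries over 10% mitochondrial, mt-Nd4l had -2.38 (adjusted p = 0.00369) and mt-Co3, a subunit of cytochrome oxidase, -2.60 (adjusted p = 0.0495), against -2.23 ± 0.57 with them. mt-Nd3 went from -0.80 ± 0.22 to -0.36 (adjusted p = 0.217) and the transfer RNA genes mt-Th, mt-Tw and mt-Ta from -1.37, -1.13 and -1.05 to -0.66, -0.47 and -0.32, with no call. Without the 4 libraries of both sex types, mt-Nd3 and these transfer RNA genes had adjusted p of 0.155 to 0.296 and no call either. The list's median was -0.21 without the 3 libraries over 10% mitochondrial and -0.92 without the 4 of both sex types. Between 1 and 11 of its genes were called when single libraries were left out. Counts of these short genes are uncertain because they adjoin or overlap each other and have nuclear copies.

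Stress and metabolic lists held few calls. The ATF3 transcription factor gene Atf3 (1.82 ± 0.34, adjusted p = 0.00231) was the 1 of 18 unfolded protein and integrated stress response genes to rise. That is near the 4.79% called higher over all genes tested, and says little about the list. Hspb8 (0.80 ± 0.15) and its partner Bag3 (0.54 ± 0.12), which act in chaperone-assisted autophagy, were the 2 of 14 heat shock genes. The cell cycle inhibitor gene Cdkn1a (1.22 ± 0.30), the receptor gene Eda2r (1.39 ± 0.28) and Trp53inp1 (0.34 ± 0.09, call lost under 6 alternatives, with adjusted p = 0.108 without the libraries of both sex types) were the 3 of 14 p53 targets. None of 28 nuclear oxidative phosphorylation genes (median 0.03), 21 cholesterol synthesis genes (-0.16), 17 immediate early genes (-0.18), 10 neurogenesis genes (0.24) or 11 genes of the LSD1-CoREST complex (-0.03) passed.

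At 9 months alone, 710 genes differed (3.39%), 588 higher (2.81%) and 122 lower (0.583%). At 11 months, with 6 carriers and 3 non-carriers, 5 did (0.0239%), all higher: Lamr1-ps1 (log2 8.66), Prnp (1.19 ± 0.17, adjusted p = 0.00199), Gbp2b (9.42, adjusted p = 0.0417), 4930590L14Rik (5.06 ± 0.62, adjusted p = 0.000536) and Gm32754 (6.31 ± 0.80, adjusted p = 0.00108). The last pair, predicted or uncharacterised transcripts at chr3:140951876-140953247 and chr3:140904998-140917459, and Gbp2b at chr3:142594847-142619179, lie within 2 Mb of each other. Of the gene lists, only the reactive astrocyte list held a call at 11 months, with 1 gene, which was Gbp2b. Gfap and Vim were not called there. The list calls above therefore rest mainly on the 9-month cohort. The 11-month comparison had 1193 genes with an unadjusted p under 0.05 (5.7%), and DESeq2 called 12 higher (0.0573%) and 1 lower (0.00478%). The fitted values of Lamr1-ps1, Gbp2b and Gm32754 at 11 months depend on the prior count, since the 3 non-carriers had 0 counts of each.

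Among genes called in the pooled fit, differences were mostly smaller at 11 months. These genes were picked by that fit, which holds more 9-month libraries, so the choice itself favours larger 9-month differences. The median over the 1002 higher genes was 0.96 at 9 months and 0.68 at 11 months, and 816 of them had the smaller difference at 11 months. For the 327 lower genes the medians were -0.57 and -0.37, with 270 smaller at 11 months. Itgax had 6.60 ± 0.89 and 3.62 ± 0.97, Cxcl10 5.34 ± 0.58 and 2.50 ± 0.65, and Gfap 2.59 ± 0.35 and 1.47 ± 0.44, whereas Prnp had 1.01 ± 0.13 and 1.19 ± 0.17 and Ctsc 1.01 ± 0.20 and 1.00 ± 0.26. The test of the difference between cohorts called 0 of 20931 genes with edgeR, with 332 at an unadjusted p under 0.05 (1.59%), and 0 with DESeq2, with 362 (1.73%). The 5 genes of lowest p in that test were Odf3l2, Sla, Ifi211, Kdm1a and Oasl1. Sla, an adaptor of lymphoid and myeloid cells, had 1.00 ± 0.19 at 9 months and -0.20 ± 0.24 at 11 months, and Oasl1, of the interferon-induced Oas family, 3.90 ± 0.61 and 0.43 ± 0.69. Ifi211 had 4.76 ± 0.77 and 0.77 ± 0.63, and Odf3l2 -0.82 ± 0.26 and 1.28 ± 0.39. Across all genes tested the cohorts' differences had a Pearson r of 0.54 and the same sign in 73.3%, and r was 0.70 over the 16194 genes that averaged 1 CPM or more, as descriptions over genes that are not independent.

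**Figure D4:**
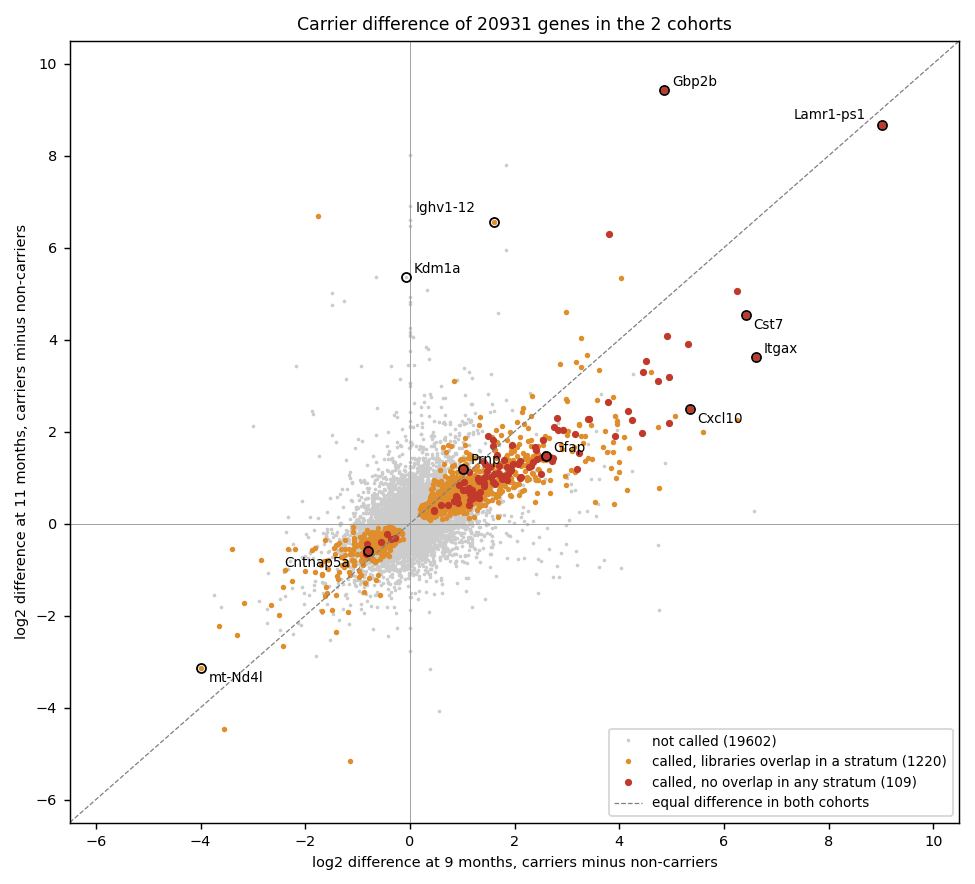
Log2 difference, carriers minus non-carriers, at 9 months (x axis) and 11 months (y axis) for 20931 genes, with 19602 not called in the pooled fit (grey), 1220 called with overlap in at least 1 stratum (orange) and 109 called without overlap (red), and with 1 gene outside the axes. Most called genes lie below the dashed line of equal difference on the right, while Prnp and Gbp2b lie above it. The called genes were picked by the pooled fit, which holds more 9-month libraries and so favours larger 9-month differences.

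Carrier libraries did not share the rises equally. Among the 1002 higher genes, PS19 replicate 1 was the highest 9-month carrier in 504 and PS19 replicate 4 in 260, while PS19 replicate 2 was the lowest in 434 and PS19 replicate 3 in 416. For Gfap these 4 libraries had 3219, 2889, 643.4 and 789.9 CPM, and for Cst7 replicate 2 had 0.850 CPM. At 11 months PS19_HA replicate 3 was highest in 557 genes and PS19_HA replicate 2 in 219, while PS19_HA replicate 1 was lowest in 374 and PS19_rescue replicate 2 in 315. Prnp ran from 1464 to 1783 CPM in PS19, 1072 to 1879 in PS19_Lsd1het, 1440 to 1611 in PS19_HA and 1195 to 1728 in PS19_rescue. In the 327 lower genes, PS19 replicate 3, with 16.1% mitochondrial counts, was the highest 9-month carrier in 245, and PS19_Lsd1het replicate 2 the lowest in 146.

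**Figure D5:**
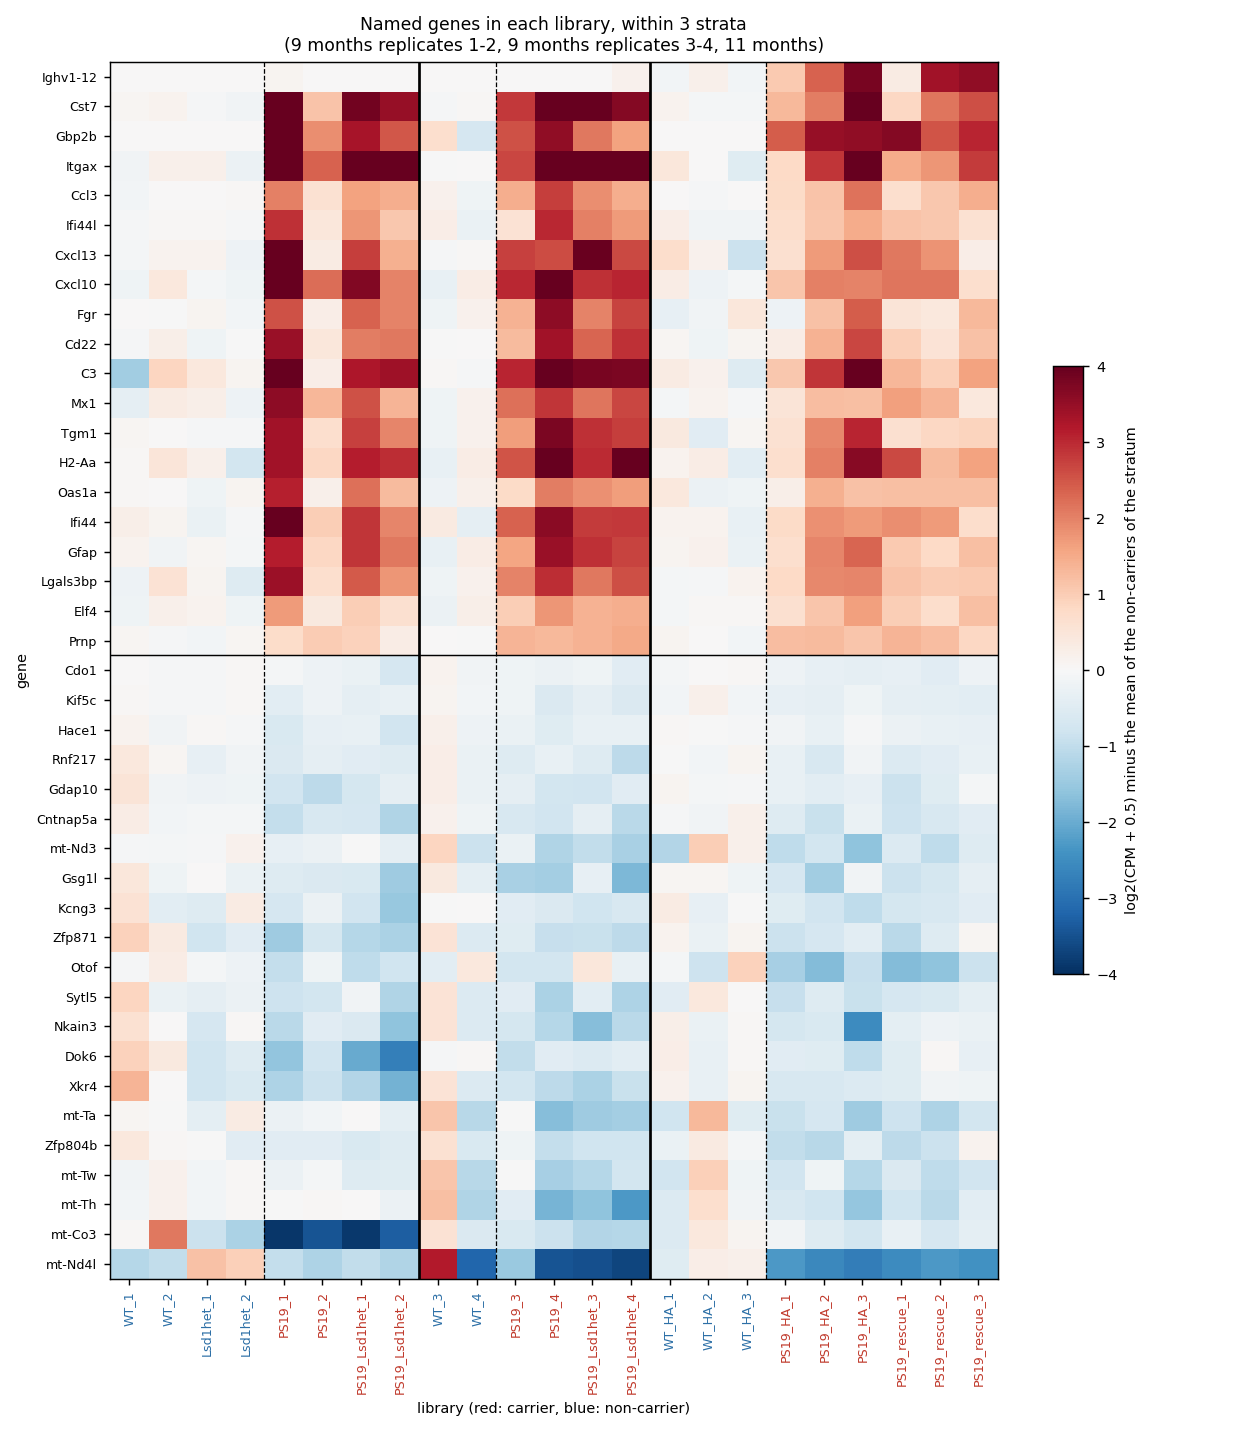
Heat map of 20 named genes that were higher and 21 that were lower in carriers, by library, as log2(CPM + 0.5) minus the mean of the non-carriers of the stratum, with the colour scale limited to ±4. PS19 replicate 2 and PS19_HA replicate 1 are the palest carrier columns of their strata among the higher genes, and WT replicate 3 stands apart in the mitochondrial genes.

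Genes that rose lay close together in several places on GRCm38. In windows of 5 Mb with at least 10 tested genes, the highest share was on chromosome 3 from 140 to 145 Mb, where 9 of 26 genes rose (34.62%), including Gbp2, Gbp2b, Gbp3, Gbp5, Gbp7, 4930590L14Rik and Gm32754. Chromosome 9 from 5 to 10 Mb had 7 of 21 (33.33%), with the caspase gene Casp4, the apoptosis inhibitor Birc3 and the metalloproteinase genes Mmp3 and Mmp12. Chromosome 11 from 80 to 85 Mb had 18 of 73 (24.66%), with 8 Ccl chemokine genes and the Slfn family. Chromosome 1 from 170 to 175 Mb had 21 of 86 (24.42%), with Fc receptor, Slamf and Ifi20x genes, and chromosome 19 from 10 to 15 Mb had 13 of 58 (22.41%), with 7 members of the Ms4a family. These windows were ranked on the calls themselves and are a description.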

How the data were processed

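Poly(A)-selected hippocampal RNA of 23 libraries was sequenced, and the values used are gene counts that the authors deposited for each library, not normalized. FastQC 0.11.7, Trimmomatic 0.36.5, HISAT2 2.1.0, featureCounts 1.6.0.6, DESeq2 2.11.40.2 and the build GRCm38 are named per the submitters' processing notes. Which annotation, strand setting and treatment of reads with several matches were used is not given in the sources used here. Of 54232 identifiers, 54165 matched symbols in GENCODE for GRCm38, and the 67 others held 0.0184% of counts. Genes were kept by edgeR's filterByExpr (minimum count 10, minimum total 15), leaving 20931. Total counts of 15451494 to 24644977 set the precision. edgeR 4.0.16 (R 4.3.3, limma 3.58.1) fitted carrier status with the 3-level stratum, TMM scaling and robust quasi-likelihood (19 residual degrees of freedom, biological coefficient of variation 0.269). A gene was called at a Benjamini-Hochberg adjusted p under 0.05, and cohort effects came from 1 fit with a carrier effect per cohort. Alternatives used DESeq2 1.42.0, limma voom, other scaling, filters, covariates and libraries, and figures used Python 3.11.15. CPM are scaled by TMM.

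The members, the gene lists, the split of the 9-month replicates and the rule for named genes were chosen with earlier results of these data known. Named were Kdm1a, Mapt, Prnp and Lamr1-ps1. Among called genes with a symbol, at least 1 CPM in an arm and 1 sign in the 3 strata, the rule took the 15 largest rises, the 15 largest falls and the 10 of lowest p. It also took up to 4 called members of each list, the 10 largest rises and falls without overlap and the 5 of lowest p for the cohort difference. 4930590L14Rik, Gm32754, the members listed as not passing, Trem2, Tyrobp and the genes of the windows were named after their values were seen. Some genes that the rule takes are not reported here. On simulated counts for this comparison over 20663 genes, 85% of 100 genes changed 2-fold and 100% of 100 changed 4-fold were recovered, with 14 false calls (7.04% of calls). The changed genes were drawn only from well-counted genes, so the recovery does not cover genes at low levels. No differences between groups of an arm and no outlying libraries were simulated, so the false calls in the real data may be more. Within groups, the closest pair of libraries differed by a chi-square of 11.62 per gene, so no library was counted as a repeat of another of its group, and pairs across groups were not compared.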

Additional observations from a re-analysis of the deposited data

Results flagged for a closer look

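Single libraries far from the others of their group of 4 were seen in 32 of 393 groups of values tested by Dixon's criterion, where chance gives about 1 in 20. All values are CPM, with the range of the group's other 3 libraries in brackets, and summed CPM for lists.

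WT replicate 3, the library with 33.9% mitochondrial counts, stood apart most often. It had 129.3 of mt-Nd4l (0.330 to 1.06), 15.56 of mt-Th (0.0471 to 2.54), 7.437 of mt-Tw (0.283 to 1.23) and 482442 summed over the mitochondrially encoded list (30626 to 48699). It also had 3117 of Cplx2 (1467 to 1713), 17.91 of Sall1 (28.51 to 30.43), 4.012 of Vwf (13.71 to 15.41), 1.076 of Ifi44 (0.423 to 0.518) and 2533 summed over the CA3 list (1163 to 1222). PS19 replicate 3 had 4.602 of mt-Nd4l (0.266 to 0.792) and 161121 summed over the mitochondrially encoded list (25990 to 41561).

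Other WT libraries differed at low levels. WT replicate 2 had 1.524 of Atf3 (0.377 to 0.573), 0.08465 of Ccl4 (0 in the others) and 0.04233 of Gm32754 (0 in the others). WT replicate 1 had 0.04712 of Ifi211 (0 in the others) and 0.7068 of Tlr2 (1.17 to 1.23), and WT replicate 4 had 1426 summed over the GABAergic list (1704 to 1748).

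Among PS19 libraries, replicate 1 had 18.97 of Cxcl13 (0.213 to 2.95), 32.9 of Irf7 (3.93 to 7.88) and 0.04433 of Ighv1-12 (0 in the others). Replicate 4 had 93.73 of H2-Aa (1.81 to 12.9), and replicate 2 had 106.2 summed over the thalamic list (181.0 to 183.1).

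Among PS19_Lsd1het libraries, replicate 4 had 40.3 of H2-Aa (8.02 to 10.9), 32.75 of Itgax (13.93 to 13.99), 0.06133 of Ighv1-12 (0 in the others) and 5827 summed over the myelin list (6914 to 6945). Replicate 1 had 1.741 of Oasl1 (0.480 to 0.613), 0.4236 of Odf3l2 (0.184 to 0.185) and 395.7 summed over oligodendrocyte precursor genes (274.8 to 283.8). Replicate 3 had 23.15 of Rnf217 (15.0 to 16.0). Replicate 2 had 3110 summed over the GABAergic list (1424 to 1620) and 276.2 over mural and fibroblast genes (218.6 to 226.1).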

How the results depend on the processing

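Counts are given as genes called in the pooled comparison, at 9 months, at 11 months and consistent in sign over the strata, which were 1329, 710, 5 and 1324. DESeq2 gave 2019, 1200, 13 and 2012, with 64.3% of the pooled calls higher against 75.4%, cohort with 2 levels 533, 354, 4 and 531, and equal weights for groups 433, 349, 5 and 432, with 1 gene for the difference between cohorts. With only WT, PS19, WT_HA and PS19_HA there were 7, 4, 2 and 7, and 317 without overlap in place of 109. limma voom gave 1576 at 9 months and the filter of at least 1 CPM in at least 6 libraries 3 at 11 months. Without the libraries over 10% mitochondrial, 223 had no overlap. Alternatives chosen after seeing the data were leaving out the 4 libraries with reads of both sex types (629, 446, 2 and 623, with 1 for the cohort difference and 222 without overlap), each stratum alone (0 for replicates 1 and 2, 0 for replicates 3 and 4, and 5 at 11 months), the newer quasi-likelihood form (1439 pooled) and the overlap count without TMM. Leaving out single libraries gave 774 to 2065 pooled, 333 to 1204 at 9 months, 3 to 6 at 11 months, 0 to 0 for the cohort difference, 770 to 2047 consistent and 109 to 180 without overlap. At 9 months PS19 replicate 1 (333), WT replicate 3 (384), WT replicate 1 (447), Lsd1het replicate 2 (467), PS19 replicate 3 (1183) and PS19 replicate 2 (1204) moved the count by over 1.5 times, and WT replicate 4 (169) and PS19 replicate 2 (180) the count without overlap. Separation is easier to reach with fewer libraries, so the counts without overlap from smaller sets cannot be set against 109 directly. No named gene changed direction among those called. The older quasi-likelihood form equals the fit reported, which is the default of this version.

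The labels do not say that replicate numbers pair these libraries, and not every same-numbered pair correlated above 0.1, so the block was not taken as the design. Correlations of deviations between same-numbered carriers and non-carriers ran from 0.01 to 0.81 over 12 pairs at 9 months (10 over 0.1) and from 0.10 to 0.44 over 6 pairs at 11 months (6 over 0.1). As a hint from the data, 11 of 14 libraries at 9 months and 7 of 9 at 11 months correlated best with their own number. With the replicate block, 1920 genes were called pooled (1283 higher and 637 lower), 1024 at 9 months, 4 at 11 months, 0 for the cohort difference and 1907 consistent, with 66.8% of pooled calls higher. Depth leaves genes under about 1 CPM resting on few counts, and 3 non-carriers limit the 11-month comparison.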
